A study of Mus musculus with 10 samples.

Results

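The Period genes Per1, Per2 and Per3 and the cryptochrome genes Cry1 and Cry2 encode the repressors of the mammalian circadian clock, and all 5 were found by symbol among the 15914 protein-coding genes listed for mouse prefrontal cortex. All 5 were among the 14406 genes that passed the minimum of 0.1 FPKM in at least 5 libraries (FPKM is a read level divided by gene length and by library depth). The genes were chosen from their known role in the clock and with results of the same comparison in view, so the FPKM of the 2 groups that chose them are given here as a description, with no test of the difference between the groups. RNA came from the prefrontal cortex of WT C57BL/6J mice in 2 groups of 5 libraries each. In the group called hypoxia + PBM here, mice received photobiomodulation (PBM), a treatment with laser light, once the exposure to hypobaric hypoxia had been given. In the group called hypoxia, mice had the exposure alone. Hypobaric hypoxia, low oxygen at reduced air pressure, was thus common to both groups, and a group without the exposure was not analysed here. The labels used here state neither age, sex nor light dose, nor the hour of exposure or collection, nor whether each library came from its own animal. P-values therefore speak only to the variation among these libraries, and part of it may be technical.

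In the clock's negative loop, the activators CLOCK and BMAL1 bind E-box motifs and switch on the Period and cryptochrome genes. PER and CRY proteins accumulate, enter the nucleus together and repress CLOCK and BMAL1, and their breakdown after phosphorylation by casein kinases lets the next cycle begin. PER1 and PER2 carry the rhythm together with the cryptochromes, while loss of PER3 in mice changes the rhythm little. Light and activity signals reach Per1 and Per2 through cAMP response elements (CRE), and factors of the PAR bZIP family, such as DBP, act on D-box motifs. Outside the brain's master pacemaker, cortex holds its own oscillating clock, so the transcript levels of these genes change over the day.

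The promoters of the 4 genes with an entry in the RefSeq promoter table (build GRCm38.p6) are shown here because they differ in these very motifs. Each window runs from 250 bases before to 50 bases after an annotated start, is read 5′ to 3′ on the gene's strand, and has the letters of a matched motif in capitals. Per1 has 2 windows in the table, and the upstream one is printed. Per2 is the member without an entry.
Per1, upstream start, chr11:69098699-69098998, plus strand: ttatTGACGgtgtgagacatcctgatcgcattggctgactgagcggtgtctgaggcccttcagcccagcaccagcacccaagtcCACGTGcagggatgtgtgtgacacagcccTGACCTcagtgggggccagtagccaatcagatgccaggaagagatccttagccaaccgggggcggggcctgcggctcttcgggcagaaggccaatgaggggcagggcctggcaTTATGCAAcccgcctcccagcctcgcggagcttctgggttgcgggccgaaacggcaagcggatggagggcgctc
Per3, chr4:151044616-151044915, minus strand: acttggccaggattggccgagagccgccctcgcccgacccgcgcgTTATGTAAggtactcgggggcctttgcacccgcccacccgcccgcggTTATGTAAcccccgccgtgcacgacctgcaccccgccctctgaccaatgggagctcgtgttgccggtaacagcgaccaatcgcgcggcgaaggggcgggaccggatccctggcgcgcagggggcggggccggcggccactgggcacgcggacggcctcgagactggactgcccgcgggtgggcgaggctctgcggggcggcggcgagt
Cry1, chr10:85185005-85185304, minus strand: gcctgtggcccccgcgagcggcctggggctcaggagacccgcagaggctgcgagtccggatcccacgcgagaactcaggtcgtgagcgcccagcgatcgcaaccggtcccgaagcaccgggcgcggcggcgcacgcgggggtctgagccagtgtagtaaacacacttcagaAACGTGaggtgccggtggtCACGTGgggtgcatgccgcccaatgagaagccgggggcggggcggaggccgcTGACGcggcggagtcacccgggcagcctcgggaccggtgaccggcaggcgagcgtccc
Cry2, chr2:92434020-92434319, minus strand: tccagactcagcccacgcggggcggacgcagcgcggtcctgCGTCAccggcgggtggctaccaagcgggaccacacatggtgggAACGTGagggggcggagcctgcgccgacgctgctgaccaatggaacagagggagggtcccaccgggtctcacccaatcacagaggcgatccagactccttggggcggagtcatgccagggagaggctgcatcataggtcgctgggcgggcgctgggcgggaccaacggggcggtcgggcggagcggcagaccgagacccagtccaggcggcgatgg
The letters were searched on both strands. The E-box CACGTG was present once in the upstream Per1 window, with its first base at position -166 from the start, and once in Cry1, at -60. No CACGTG was in the Per3 or Cry2 window or in the downstream Per1 window. The related letters CACGTT occurred on the opposite strand in Cry1 (at -79) and in Cry2 (at -166). The D-box TTATGTAA occurred 2 times in Per3, at -205 and -158, and in no other of these windows. The similar letters TTATGCAA, added to the search after the sequences had been viewed, were found once in the upstream Per1 window, at -24. The CRE half-site TGACG, which also lies within the full CRE TGACGTCA, was in both Per1 windows, in Cry1 and in Cry2. The full CRE was in none of the 5 windows. The letters AGGTCA, the half-site bound by REV-ERB and ROR receptors, were in the upstream Per1 window alone. Among all 32851 windows of the table, 7.15% held CACGTG, 4.68% CACGTT, 0.938% TTATGTAA, 0.743% TTATGCAA, 20.8% TGACG, 1.79% TGACGTCA and 16.3% AGGTCA. At least 2 copies of TTATGTAA, as in Per3, were present in 7 of the 32851 windows. A match of letters is a description of the window and not a measured binding site.

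**Figure D1:**
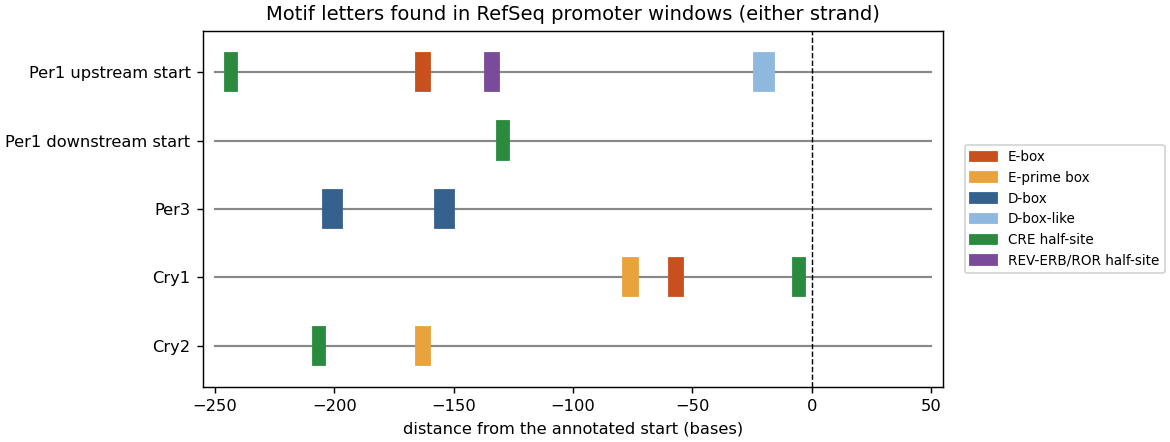
Positions of motif letters in the RefSeq promoter windows of Per1 (2 annotated starts), Per3, Cry1 and Cry2. The x axis is the distance in bases from the annotated start (dashed line), each grey line is 1 window, and each coloured block is 1 match on either strand. The 2 D-box matches are in Per3, and the E-box matches are in the upstream Per1 window and in Cry1.

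The libraries held between 29283937 and 35957148 reads in the listed genes, recovered as whole numbers from the FPKM and the authors' group means. Members had between 685 and 6520 reads per library, so the counting error of a single value lay between 1.24% (Cry2 in a hypoxia library) and 3.82% (Per3 in a hypoxia library). All 8 markers of cortical excitatory neurons were measured, with a summed level of 606 to 639 FPKM in hypoxia + PBM and 593 to 650 FPKM in hypoxia. Slc17a7 alone averaged 507 FPKM in hypoxia + PBM and 493 FPKM in hypoxia, so the sum says little about the other markers. Of the 8, 0 were called (limma-trend, adjusted p under 0.05), with 6 positive and 2 negative log2 changes. Bcl11b was at 79.0% of its hypoxia mean and Emx1 at 120%, genes named after their values were seen. Markers of striatal medium spiny neurons, cells of a neighbouring region, were present as well: all 17 were measured, none was at 0, and their sum was 263 to 441 FPKM in hypoxia + PBM and 478 to 837 FPKM in hypoxia. All 17 fell in hypoxia + PBM (limma-trend, adjusted p under 0.05, where 1.70% of all tested genes were called lower and 1.15% higher), with a median log2 change of -0.88. Markers of choroid plexus ranged widely in both groups (8.58 to 470 FPKM summed in hypoxia + PBM and 87.5 to 635 FPKM in hypoxia, with 0 of 5 called). Of 6 endothelial markers 3 were called higher, and of 6 astrocyte markers 2 were. The astrocyte list was split, with 3 positive and 3 negative log2 changes. The part of these cell types in the members' differences was not tested beyond the striatal covariate given with Per3. In bulk tissue, fewer cells of a type and less RNA per cell cannot be told apart.

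Between the groups, 4 of the 5 genes were lower in hypoxia + PBM and Per3 was higher. Per2 was lowest relative to hypoxia, at 68.1% of the hypoxia mean, followed by Per1 at 76.8%, Cry2 at 83.6% and Cry1 at 92.5%, while Per3 stood at 120% of the hypoxia mean. The median log2 change of the 5 genes was -0.25, against 0.00011 over all tested genes, and their median absolute log2 change was 0.25, against 0.059. The fit over all genes placed 2 members (Per2 and Cry2) under an adjusted p of 0.05, both lower, where 2.85% of all tested genes were called in either direction. In 3 members the ranges of the groups were separate, as in 5.53% of all tested genes: Per2 and Cry2 lay below (2.87% of tested genes did) and Per3 above (2.67%). Because the genes were chosen with this contrast in view, nothing is read from these counts.

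**Figure D2:**
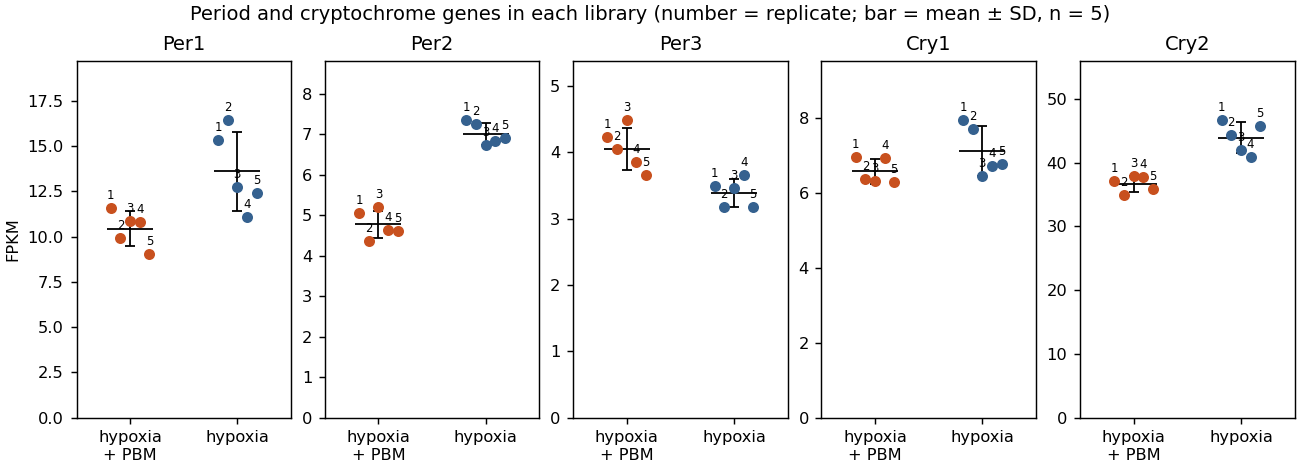
FPKM of Per1, Per2, Per3, Cry1 and Cry2 in each library, hypoxia + PBM on the left and hypoxia on the right of each panel. Points are libraries numbered by replicate, and black marks are the mean ± SD (n = 5). Per2 and Cry2 are separated by clear gaps, Per3 runs the other way and its groups nearly touch, and hypoxia replicates 1 and 2 stand above the others in Per1 and Cry1.

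Per1 is a period gene that light and activity signals induce quickly. Its level was 11.6, 9.93, 10.8, 10.8 and 9.05 FPKM in replicates 1 to 5 of hypoxia + PBM, against 15.3, 16.4, 12.7, 11.1 and 12.4 FPKM in replicates 1 to 5 of hypoxia. The groups overlapped, since hypoxia replicate 4 lay below the highest hypoxia + PBM library, and hypoxia replicates 1 and 2 stood well above the other 8 libraries. Means were 10.4 ± 0.973 FPKM in hypoxia + PBM and 13.6 ± 2.19 FPKM in hypoxia (SD, n = 5 each). The log2 change was computed as hypoxia + PBM over hypoxia from log2(FPKM + 1), here and below, and for Per1 it was -0.34 ± 0.092 (SE). Without hypoxia replicates 1 and 2, an alternative chosen after seeing the data, the log2 change was -0.20 ± 0.073 (SE).

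Per2, a period gene whose loss disrupts the daily rhythm of mice, had the largest log2 change of the 5 in size, though Cry2 differed by more in FPKM. It was at 5.04, 4.37, 5.20, 4.64 and 4.61 FPKM in hypoxia + PBM, against 7.34, 7.26, 6.72, 6.83 and 6.90 FPKM in hypoxia. Each hypoxia + PBM library lay below each hypoxia library, with 1.53 FPKM between the nearest pair. The means were 4.77 ± 0.338 FPKM in hypoxia + PBM and 7.01 ± 0.271 FPKM in hypoxia (SD, n = 5 each), a log2 change of -0.47 ± 0.049 (SE). Leaving out any 1 library moved this value only between -0.50 and -0.45.

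Per3, the third period gene and the one with both D-box matches among the genes with a promoter window, was the single member that was higher. Values of 4.23, 4.05, 4.48, 3.85 and 3.66 FPKM in hypoxia + PBM stood against 3.49, 3.18, 3.46, 3.66 and 3.17 FPKM in hypoxia. The groups did not overlap, but only 0.0038 FPKM lay between hypoxia + PBM replicate 5 and hypoxia replicate 4. Mean levels were 4.06 ± 0.319 FPKM in hypoxia + PBM and 3.39 ± 0.212 FPKM in hypoxia (SD, n = 5 each), with a log2 change of 0.20 ± 0.055 (SE). This value moved most when the mean of the striatal markers entered as a covariate, to 0.041 ± 0.091 (SE). That mean separated the groups by itself, at 2.94 to 3.67 log2 units in hypoxia + PBM and 3.76 to 4.51 in hypoxia, so its part and that of the group cannot be told apart. For Per2 the same covariate gave -0.56 ± 0.090, for Per1 -0.36 ± 0.18, for Cry1 -0.088 ± 0.11 and for Cry2 -0.22 ± 0.077 (log2 change, SE).

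Cry1, the cryptochrome that acts late in the cycle as the stronger repressor, differed least. Its libraries were at 6.96, 6.38, 6.31, 6.92 and 6.29 FPKM in hypoxia + PBM, against 7.93, 7.70, 6.44, 6.70 and 6.76 FPKM in hypoxia. The groups overlapped, and hypoxia replicates 1 and 2 were again the highest of all. The mean was 6.57 ± 0.339 FPKM in hypoxia + PBM and 7.11 ± 0.663 FPKM in hypoxia (SD, n = 5 each). Its log2 change was -0.096 ± 0.058 (SE), and -0.013 ± 0.051 without hypoxia replicates 1 and 2.

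Cry2, the second cryptochrome, was the most abundant member. Its libraries held 37.1, 34.9, 38.0, 37.7 and 35.9 FPKM in hypoxia + PBM, against 46.6, 44.3, 42.0, 40.9 and 45.7 FPKM in hypoxia. The groups were 2.91 FPKM apart at their nearest. Cry2 averaged 36.7 ± 1.27 FPKM in hypoxia + PBM and 43.9 ± 2.43 FPKM in hypoxia (SD, n = 5 each), a log2 change of -0.25 ± 0.041 (SE). In GENCODE M21 an RNA gene on the opposite strand, D930015M05Rik, shares 295 exonic bases with Cry2 (4.67% of its exonic bases), and the labels do not state whether the counting used strand. The span of Per3 overlaps that of Camta1, but the genes share 0 exonic bases in that annotation. In the authors' deposited table, the log2 fold changes with hypoxia + PBM on top were -0.38 for Per1, -0.55 for Per2, 0.26 for Per3, -0.11 for Cry1 and -0.26 for Cry2, and 6.40% of its genes had a q-value under 0.05. The log2(FPKM + 1) used here draws changes of low-level genes toward 0, so its values and the authors' are on unlike scales.

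The opposite course of Per2 and Per3 gave their ratio within a library the largest relative difference among the ratios computed, 1.75-fold. Per3 was at 0.839, 0.927, 0.863, 0.830 and 0.795 of the Per2 level in the 5 hypoxia + PBM libraries, against 0.475, 0.438, 0.515, 0.536 and 0.460 of it in the 5 hypoxia libraries. No library of 1 group came near the other group, and the mean ratio was 0.851 ± 0.0493 in hypoxia + PBM and 0.485 ± 0.040 in hypoxia (SD, n = 5 each). Per2 and Per3 each separated the groups, in opposite directions, so their ratio could not overlap. The ratios and shares given here restate the contrast that was in view when the genes were chosen, and carry no test. Per3 made up 21.1% ± 0.931 of the summed FPKM of the 3 period genes in hypoxia + PBM and 14.3% ± 1.92 in hypoxia. The Per2 share of that sum was 24.8% ± 1.17 in hypoxia + PBM and 29.3% ± 1.87 in hypoxia, also without overlap, whereas the Per1 share of 54.1% ± 1.63 in hypoxia + PBM and 56.4% ± 3.68 in hypoxia overlapped (SD, n = 5 each). Cry1 stood at 1.38 ± 0.108 times the Per2 level in hypoxia + PBM and at 1.01 ± 0.0549 times in hypoxia, without overlap.

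The balance between the period and cryptochrome sides overlapped between the groups. The 3 period genes summed to 19.3 ± 1.47 FPKM in hypoxia + PBM and 24.0 ± 2.34 FPKM in hypoxia. The 2 cryptochromes summed to 43.3 ± 1.44 FPKM in hypoxia + PBM and 51.0 ± 2.92 FPKM in hypoxia. Both sums were lower in each hypoxia + PBM library than in any hypoxia library, and their ratio was 0.445 ± 0.0251 in hypoxia + PBM and 0.470 ± 0.0324 in hypoxia (SD, n = 5 each). Cry2 was at 5.60 ± 0.273 times the Cry1 level in hypoxia + PBM and at 6.20 ± 0.428 times in hypoxia, with overlap.

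**Figure D3:**
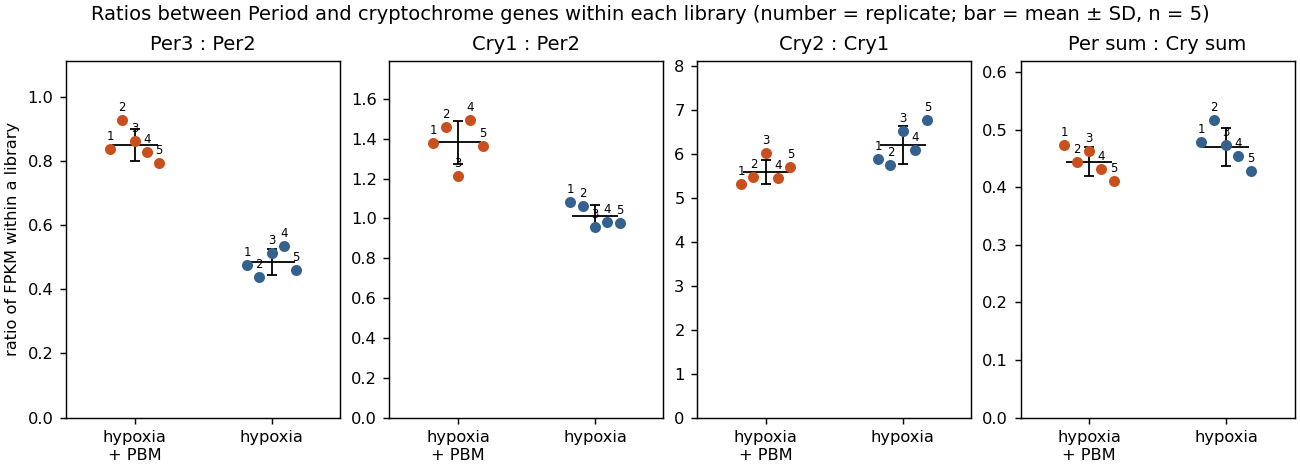
Ratios of FPKM between members within each library, hypoxia + PBM on the left of each panel and hypoxia on the right. Points are libraries numbered by replicate, and black marks are the mean ± SD (n = 5). The Per3 to Per2 and Cry1 to Per2 ratios do not overlap between the groups, while the Cry2 to Cry1 ratio and the ratio of the period sum to the cryptochrome sum do.

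The levels of the members against each other were not used to choose them. Their order was taken from the means of these same 10 libraries, and its neighbours were then compared within libraries. The p-values are therefore no independent test of the order. Cry2 was the highest, followed by Per1, Cry1, Per2 and Per3, with means over all 10 libraries of 40.3, 12.02, 6.84, 5.89 and 3.72 FPKM in that order. FPKM is per length, and the order depends on the gene lengths the authors used. Cry2 exceeded Per1 by a mean 3.39-fold, Per1 exceeded Cry1 by 1.74-fold and Per2 exceeded Per3 by 1.56-fold, each in 10 of 10 libraries (adjusted p = 0.0026 for each, two-sided exact sign-flip permutation test over 10 libraries and 4 pairs). Cry1 exceeded Per2 by 1.18-fold, in 7 of 10 libraries (adjusted p = 0.0234, same exact test). These pooled values include the group differences of the members, which were in view when the genes were chosen. Per2 exceeded Per3 by 1.18-fold within hypoxia + PBM and by 2.07-fold within hypoxia, in 5 of 5 libraries of each. Within hypoxia + PBM, Cry1 was above Per2 in 5 of 5 libraries, by 1.38-fold. Within hypoxia these neighbours did not differ beyond their spread: Cry1 was above Per2 in 2 of 5 libraries, with a mean fold of 1.01 (p = 0.75, exact test). With 5 libraries the smallest p this test allows is 0.0625.

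The members also differed in how much they varied between libraries of the same group, which was not used to choose them either. Per1 had a within-group SD of 0.18 log2 units, larger than that of 97.6% of 2363 genes of like level (within 0.5 log2 units of its mean). Cry1 had 0.094, larger than in 59.5% of such genes, Cry2 0.065 (44.3%), Per3 0.081 (32.5%) and Per2 0.069 (25.8%). Per1 varied by 9.32% in hypoxia + PBM and 16.1% in hypoxia (coefficient of variation), against a mean counting error of 1.81% and 1.66% in those groups. Per2 varied by 7.07% in hypoxia + PBM and 3.87% in hypoxia, where counting error alone came to 3.17% and 2.71%. Hypoxia replicates 1 and 2 were the top pair of their group for Per1, Per2 and Cry1, but replicate 4 was the highest for Per3 and replicates 1 and 5 for Cry2. Among the hypoxia + PBM libraries, replicate 3 was highest for Per2, Per3 and Cry2 and replicate 1 for Per1 and Cry1.

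**Figure D4:**
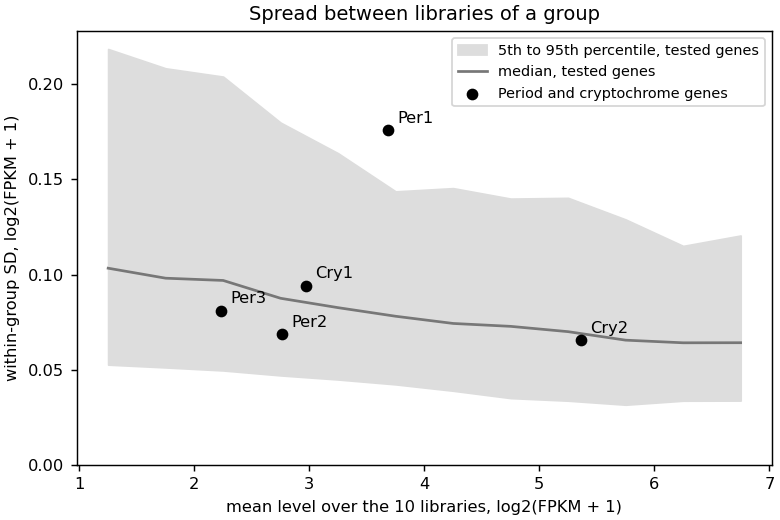
Within-group SD of log2(FPKM + 1), pooled over both groups, against the mean level over the 10 libraries. Black points are the 5 genes, the grey line is the median of all tested genes in bins of level, and the grey band runs from their 5th to their 95th percentile. Per1 lies above the band at 0.18, and the other 4 genes lie near or below the line.

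Other genes of the clock pathway were described by 6 lists of 39 tested genes, of which 6 fell in hypoxia + PBM and none passed the test upward (limma-trend, adjusted p under 0.05, where 1.70% of all tested genes were called lower and 1.15% higher). Like the members, these lists were chosen with earlier results of these data known. Counts and adjusted p-values of their genes, here and in the paragraphs below, are therefore descriptions and no independent test. The split over all tested genes depended on the scaling: 166 were higher and 245 lower as reported, 209 and 193 on the TPM scale, and 210 and 214 with upper-quartile scaling, while the clock lists held 6 lower and 0 higher under each. At an unadjusted p under 0.05, 10 of the 39 were lower and 1 higher, where 10.1% of all tested genes were lower and 9.46% higher. Limma-voom on the recovered reads called 6 lower and 1 higher (the orphan receptor gene Rorb, named after its values were seen), where it called 4.05% of all tested genes, 2.13% lower and 1.92% higher. The median log2 change of the 39 genes was -0.0068. The genes that fell were the REV-ERB pair, the DEC pair, the D-box factor Dbp and a phosphatase subunit. Without hypoxia replicates 1 and 2 the count of genes that fell was 4 of 39, with Nr1d2 and Dbp past the threshold (limma adjusted p = 0.0653 and 0.124). With the striatal marker mean as a covariate it was 0 (limma-trend; 5 lower and 0 higher at an unadjusted p under 0.05), and over all tested genes 0 were called in either direction (391 lower and 463 higher at an unadjusted p under 0.05). Under that covariate the log2 change was -0.60 ± 0.10 for Bhlhe40, -0.46 ± 0.096 for Bhlhe41, -0.33 ± 0.095 for Nr1d1, -0.27 ± 0.082 for Ppp1cc, -0.21 ± 0.075 for Nr1d2 and -0.067 ± 0.11 for Dbp (SE). The standard errors were larger than without it for all 6 genes, and the log2 change itself was near 0 for Dbp alone. Since the striatal marker mean separated the groups by itself, its part and that of the group cannot be told apart for any of these genes.

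Genes of the positive arm, whose products drive transcription of the Period and cryptochrome genes, did not pass the test (0 of 4, also at an unadjusted p under 0.05 and by limma-voom). Bmal1 was at 1.63 ± 0.103 FPKM in hypoxia + PBM and 1.50 ± 0.0939 FPKM in hypoxia (SD, n = 5 each), with a log2 change of 0.069 ± 0.047 (SE). Its low-level paralog Bmal2 had a log2 change of 0.10 ± 0.095 (SE).

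The REV-ERB receptors, which repress Bmal1 and are themselves switched on through E-boxes, both fell. Nr1d1 averaged 44.2 ± 2.00 FPKM in hypoxia + PBM and 59.6 ± 4.88 FPKM in hypoxia (SD, n = 5 each), with a log2 change of -0.42 ± 0.052 (SE) and an adjusted p of 0.0026 by limma. Nr1d2 averaged 26.6 ± 1.44 FPKM in hypoxia + PBM and 31.5 ± 0.893 FPKM in hypoxia (SD, n = 5 each), with a log2 change of -0.24 ± 0.040 (SE) and an adjusted p of 0.010 by limma, which was 0.0653 without hypoxia replicates 1 and 2. The ROR receptors, which activate at the same elements, did not pass (0 of 3).

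Both DEC repressors, which compete with CLOCK and BMAL1 for E-boxes, fell. Bhlhe40 stood at 45.9 ± 3.06 FPKM in hypoxia + PBM and 63.2 ± 5.80 FPKM in hypoxia (SD, n = 5 each), with a log2 change of -0.45 ± 0.060 (SE) and an adjusted p of 0.0044 by limma. Bhlhe41 stood at 7.07 ± 0.170 FPKM in hypoxia + PBM and 10.5 ± 0.847 FPKM in hypoxia (SD, n = 5 each), with a log2 change of -0.51 ± 0.051 (SE) and an adjusted p of 0.00054 by limma.

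Of the 5 D-box factors and outputs, 1 passed. Dbp, a PAR bZIP activator at D-boxes, was at 33.7 ± 4.40 FPKM in hypoxia + PBM and 44.7 ± 3.51 FPKM in hypoxia (SD, n = 5 each), with a log2 change of -0.40 ± 0.082 (SE) and an adjusted p of 0.022 by limma, and leaving out hypoxia + PBM replicate 1, hypoxia replicate 1 or hypoxia replicate 2 took it past the threshold (limma adjusted p between 0.0508 and 0.0563). With the replicate number as a block its adjusted p was 0.0635 (limma). Its relatives Tef and Hlf and the D-box repressor gene Nfil3, all 3 named after their values were seen, had log2 changes of -0.12 ± 0.035, 0.024 ± 0.058 and 0.13 ± 0.083 (SE). Per3, with 2 D-box matches in its window, was at 120% of its hypoxia level in libraries where Dbp was at 75.5% of its own. A link between these values was not tested, and Per2 had no window to compare.

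Genes that act on the PER and CRY proteins were described by 2 lists. Of 11 kinases, phosphatase subunits and partners, 1 fell and none rose by limma-trend, and limma-voom gave the same counts. Ppp1cc, a catalytic subunit of protein phosphatase 1, which opposes PER phosphorylation, was at 42.4 ± 1.61 FPKM in hypoxia + PBM and 51.8 ± 3.12 FPKM in hypoxia (SD, n = 5 each), with a log2 change of -0.28 ± 0.043 (SE) and an adjusted p of 0.0067 by limma. The casein kinase 1 genes Csnk1d and Csnk1e, named after their values were seen, were at -0.036 ± 0.036 and -0.057 ± 0.045 (log2 change, SE). Of 12 genes of PER and CRY turnover none passed (1 lower at an unadjusted p under 0.05, and 0 by limma-voom). The kinase genes Gsk3a and Prkaa1 had the smallest p in that list, with log2 changes of -0.12 ± 0.032 and 0.079 ± 0.043 (SE).

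**Figure D5:**
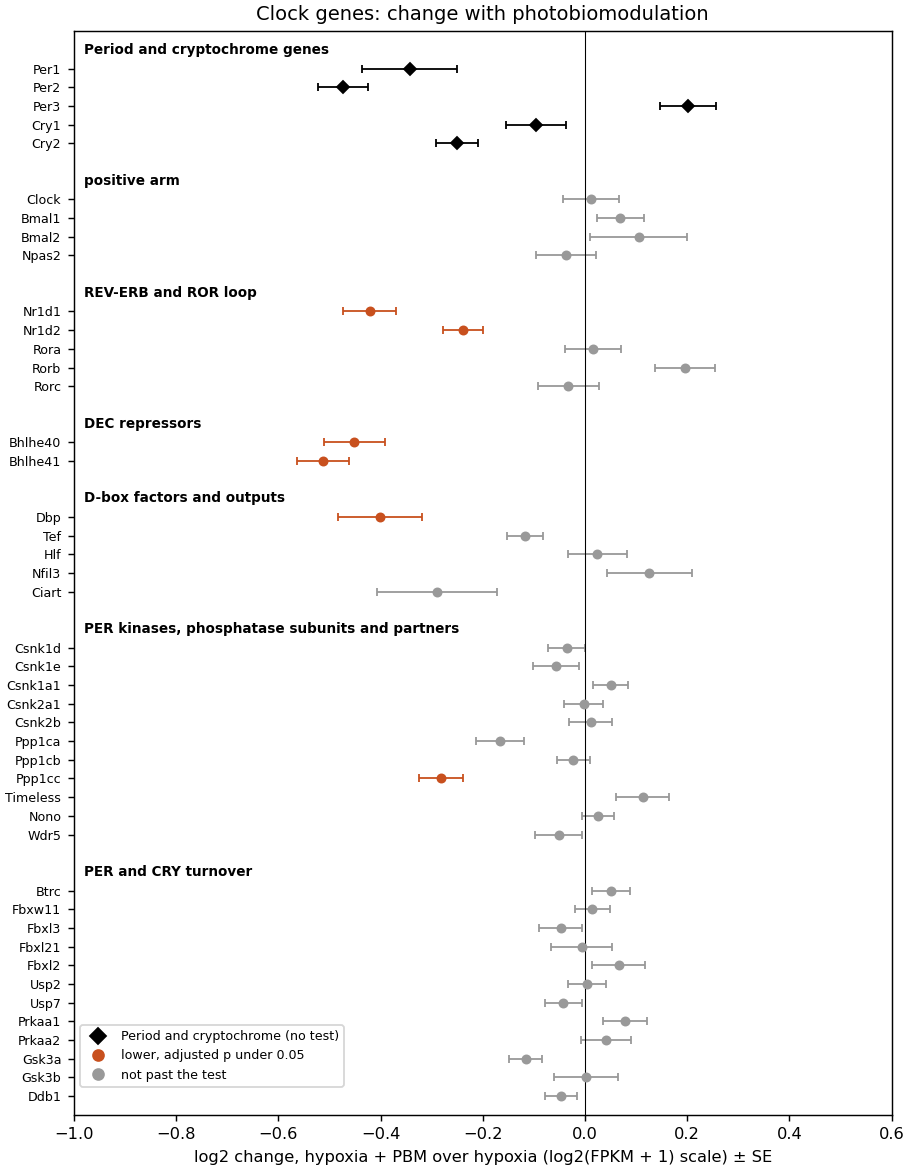
Log2 change (hypoxia + PBM over hypoxia, from log2(FPKM + 1)) of the Period and cryptochrome genes (black diamonds, no test) and of 39 other clock genes in 6 lists. Bars are ± SE from the fit over all genes, orange marks genes lower at an adjusted p under 0.05, and grey marks genes that did not pass. Among the black points Per3 alone lies above 0, and the 6 orange genes are Nr1d1, Nr1d2, Bhlhe40, Bhlhe41, Dbp and Ppp1cc.

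A pair of lists covered signals known to act on the Per1 and Per2 promoters. Of 14 CREB- and activity-induced genes, 1 fell and none rose by limma-trend, while limma-voom called 4 lower and 1 higher (2.13% and 1.92% of all tested genes). The list was split in direction: at an unadjusted p under 0.05 (limma-trend), 6 were lower and 4 higher, where 10.1% and 9.46% of all tested genes were. Egr1, an immediate early transcription factor, was at 112 ± 14.4 FPKM in hypoxia + PBM and 145 ± 13.7 FPKM in hypoxia (SD, n = 5 each), with a log2 change of -0.38 ± 0.083 (SE) and an adjusted p of 0.028 by limma. Its groups overlapped by a narrow margin. Leaving out single libraries kept it under the threshold in 4 of 10 cases, and it was past it without hypoxia + PBM replicate 1, 2 or 4 or hypoxia replicate 1, 2 or 5 (limma adjusted p between 0.0514 and 0.0725). Without hypoxia replicates 1 and 2 together its adjusted p was 0.122 (limma). Of 14 glucocorticoid-responsive genes none passed (limma-trend; 1 higher and 3 lower at an unadjusted p under 0.05, where 9.46% of all tested genes were higher and 10.1% lower, and 0 by limma-voom). The transcription factor genes Klf9 and Klf15 had the smallest p there, with log2 changes of -0.14 ± 0.056 and -0.19 ± 0.081 (SE).

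The genes with the profile most like each member over the 10 libraries were sought among 11225 other genes of at least 1 FPKM. Likeness was the root mean square difference of standardised log2 levels, where 0 is an identical profile and the largest possible value an opposite one. Nearest to Per1 were Sipa1 (0.22) and Ppp1r21 (0.27), and nearest to Per2 were Ubtd2 (0.21) and the DEC gene Bhlhe41 (0.27). Per3 was nearest to Kndc1 (0.22) and Zer1 (0.27), Cry1 to Trim23 (0.22) and Pcbp2 (0.24), and Cry2 to Ldb1 (0.24) and Ubtd2 (0.25). Kndc1 averaged 12.7 ± 0.861 FPKM in hypoxia + PBM and 11.0 ± 0.328 FPKM in hypoxia (SD, n = 5 each). Ubtd2 averaged 14.8 ± 0.391 FPKM in hypoxia + PBM and 16.9 ± 0.382 FPKM in hypoxia (SD, n = 5 each). Among the members themselves Per2 and Cry2 were the most alike (0.32). The profile of Per3, the single member that was higher in hypoxia + PBM, was at 1.71 to 1.88 from each of the others, toward an opposite profile. These values describe likeness over libraries that include the group difference and carry no test.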

How the data were processed

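RNA-seq of prefrontal cortex gave 5 hypoxia + PBM and 5 hypoxia libraries. The tools named in the submitters' processing notes are HTSeq, HISAT2 and fastp 1.0, and the build is GRCm39. Per the file headers, the authors computed the FPKM of each gene in each library. The deposited signal columns are the authors' mean counts after DESeq2 size factors, over all libraries and per group. The authors' deposited fold ratio and log2 fold change compare the same groups, with their p-value and q-value. The authors' fold ratio was not used.

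No column holds counts, so limma 3.58.1 (R 4.3.3) was run with a trend on log2(FPKM + 1) over the 14406 genes of at least 0.1 FPKM in at least 5 libraries, with Benjamini-Hochberg adjustment and a threshold of 0.05. Whole reads were recovered from the FPKM and group means (100% of values within 0.01 reads) and used for depth and for limma-voom. Totals of 29283937 to 35957148 reads gave the counting errors in the text, which cover counting alone. Paired levels were compared within libraries by exact sign-flip tests. Members and gene lists were chosen with earlier results of these data known. Named were all members, the called genes of each list or else the 2 with the smallest p, and the 2 nearest profiles per member. Expression showed little pairing by replicate number (same-number correlations -0.072 to 0.21, with up to 0.35 between unlike numbers). This cannot exclude a pairing by design. No 2 libraries agreed within counting noise. Scripts were tested on simulated data. Promoter windows are of RefSeq GRCm38.p6 and exon overlaps of GENCODE M21, which is another build than the authors', so no coordinates were joined.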

Additional observations from a re-analysis of the deposited data

Results flagged for a closer look

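Klf15, a glucocorticoid-responsive transcription factor gene, was at 3.37 FPKM in hypoxia + PBM replicate 5, while the other 4 libraries of that group held 4.42 to 4.61 FPKM. The gap to the nearest library was 0.848 of the group's range, above Dixon's 95% critical value for 5 samples. It was the 1 group past that value among 58 examined, where chance gives about 1 in 20. None of the 5 Period and cryptochrome genes had such a library.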

How the results depend on the processing

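Directions of all 5 members were kept in each alternative run. Per2 was at -0.55 (log2 change) with a pseudocount of 0.1 and -0.55 with limma-voom, against -0.47 with the pseudocount of 1. Adding 1 to the FPKM draws the log2 change of a low-level gene toward 0. With the striatal covariate Per2 was at -0.56 and Per3 at 0.041, and Bmal2 turned to -0.20. The cause of the shifts with the covariate was not tested. Limma-voom called 277 genes higher (1.92% of all tested genes, with 1 core clock gene and 1 member, Per3) and 307 lower (2.13%, with 6 core genes and 3 members). Since the members were chosen with this contrast in view, nothing is read from the member counts here and below. The replicate block gave 256 calls (105 higher, 151 lower); the numbers did not pair the libraries, as 1 of 5 same-number correlations exceeded 0.1 and 2 of 10 libraries correlated best with their own number. The striatal covariate, which separated the groups by itself, left 0 calls (0 higher, 0 lower, 0 core, 0 members). Standard errors grew, and of the 6 core genes that fell Dbp alone came near 0. Without hypoxia replicates 1 and 2, chosen after seeing the data, 74 genes were called (32 higher, 42 lower, 1 member). In hypoxia + PBM alone the level differences of Cry2 over Per1, Per1 over Cry1, Cry1 over Per2 and Per2 over Per3 were 1.82, 0.66, 0.46 and 0.24 on the log2 scale (exact adjusted p = 0.0625 each), and in hypoxia alone 1.70, 0.93, 0.015 and 1.05 (exact adjusted p = 0.0833, with 0.75 for Cry1 over Per2), where 5 libraries cannot go below an unadjusted 0.0625. Leaving out 1 library gave 200 to 538 calls (lowest without hypoxia replicate 1, highest without hypoxia replicate 4), 78 to 203 higher and 122 to 335 lower, 5 to 7 core genes lower and 2 to 3 members lower, and 0 to 1 member higher (1 without hypoxia + PBM replicate 5). Per1 then ranged from -0.41 to -0.28, Per3 from 0.17 to 0.23, Cry1 from -0.13 to -0.060 and Cry2 from -0.28 to -0.23 (log2 change). Of 246 alternative values of other named genes, 225 kept direction and side of the threshold, 20 lost the call and 1 changed sign. No scaling moved the median of all genes by more than 0.022 (log2).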

Other observations

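In the authors' deposited table, 34 genes carry the KEGG annotation of circadian rhythm, and 28 genes other than the Period and cryptochrome genes were tested. Of these 28, 5 were lower in hypoxia + PBM and 0 higher by limma-trend (adjusted p under 0.05, where 1.70% of all tested genes were lower and 1.15% higher), namely Bhlhe40, Bhlhe41, Dbp, Nr1d1 and Nr1d2. At an unadjusted p under 0.05 (limma-trend), 6 were lower and 2 higher, where 10.1% of all tested genes were lower and 9.46% higher. Limma-voom called 5 lower and 1 higher, where it called 2.13% of all tested genes lower and 1.92% higher. All 5 named genes also stand in the clock lists above, so this count adds no separate evidence.

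Genes with the motifs of the Period and cryptochrome promoters were described over the whole RefSeq table. Of 1263 tested genes with the E-box CACGTG in their window, 11 were called higher and 23 lower (2.69%, against 2.85% of all tested genes), with a median log2 change of -0.013. Of 86 tested genes with the D-box TTATGTAA, 3 were called higher and 2 lower (5.81%), with a median log2 change of 0.017. These are counts over windows and carry no test.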
